A study of Mus musculus with 24 samples.

Results

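The heat shock proteins and DnaJ (HSP40) chaperones were followed in brain and liver of newborn cloned and control mice. Members were chosen by name: the array's probes, control spots left out, whose gene name begins with Hspa to Hsph, Hsp90, Dnaja, Dnajb or Dnajc. A probe was kept if, in 1 or more of the 6 groups, each of the 4 arrays scored it as well above background in the scanner software. The name rule matched 123 probes for 64 gene names, and 109 probes for 60 names were kept, out of 19881 gene names kept in all. Dnajb7, Dnajc5b, Dnajc5g and Hspb7 did not pass. All 60 kept names could be tested in brain and 55 in liver, where Dnajb13, Hspa12a, Hspa1l, Hspb3 and Hspb6 did not reach the background rule. The name and the family did not always coincide. Hspc171 is Tmem208 in current annotation and Hspbap1 is not a chaperone of these families, while Dnajb10 is the older name of Dnajb2. Hsph1, carried on the array under another name, was not matched.

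The study asked whether errors of nuclear reprogramming build up when mice are cloned again and again. G20 mice came from serial cloning carried to generation 20, with cumulus cells, which surround the egg, as nuclear donors. CC mice were somatic clones derived from cumulus cells, with no generation number in their labels. NC mice were the controls, conceived by ICSI, the injection of a sperm into an egg. All were female neonates whose background combined C57BL/6 and DBA2 with 129/Sv, with 4 arrays for each of the 3 groups in each of brain and liver, 24 in all. NC and CC arrays of the same number carry the same source name in both tissues, whereas all G20 arrays carry 1 source name. The p-values therefore measure the spread between these arrays, which may be technical.

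Chaperones of the HSP70 class bind unfolded stretches of protein in cycles of ATP hydrolysis. J-domain proteins (the Dnaja, Dnajb and Dnajc genes) bring them clients and trigger hydrolysis, and HSP110-type proteins such as Hspa4 and Hspa4l reset the cycle by nucleotide exchange. HSP90s take over partly folded clients, the HSP60 and HSP10 chaperonin folds proteins in the mitochondrial matrix, and small HSPs hold unfolded proteins against aggregation. The endoplasmic reticulum and mitochondria have sets of their own, and the liver, which secretes most plasma proteins, is rich in the set that serves secretion.

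Each value below is the log2 processed signal of 1 probe minus the 75th percentile of its array, so it is a level relative to that array, and levels of different genes are not comparable. Between 53.6% and 70.6% of probes were well above background on an array, no member spot was saturated, and no arrays held identical values. In NC newborns all 6 measurable neuron markers were higher in brain and all 6 measurable hepatocyte markers were higher in liver, so the tissue labels fitted their markers. Each group lay on its own slide, and the effects of slide and group cannot be told apart. The CC arrays were scanned in a session of their own, 221 days after the first session, and CC and scan session cannot be told apart either. Brain G20 and NC arrays shared a session, and so did liver G20 and NC arrays. The muscle marker sum (10 genes) was 6.77 and 4.53 on CC liver arrays 1 and 2, against 1.07 to 3.07 on the other 10 liver arrays. All 3 liver groups enter the estimate of the spread, so counts without those CC arrays are given too.

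In G20 livers a small set of chaperone transcripts differed from NC livers. Hspb8, Dnajb9, Dnajb4, Dnajc10 and Hsp90b1 were higher and Hspa4l and Dnajb3 were lower. Dnajc6 was higher too, but only 2 of the 4 NC arrays were above background for it and its sign turned after normexp background correction. In limma, with p-values adjusted by Benjamini-Hochberg over the 16364 genes tested in liver, 8 of 55 members (14.5%) were called at an adjusted p under 0.05, 6 higher and 2 lower. Among all genes tested 7.31% were called, 4.31% higher and 3% lower. The median difference was 0.07 over the members and 0.03 over all genes. The count was 4 without G20 array 2, 3 or 4 or NC array 1, and 5 without NC array 2. The share of all genes is not given for these fits. Without CC arrays 1 and 2 the count was 10 (6 higher, 4 lower), beside 9% of all genes. It was 7 (5 higher, 2 lower) when probes had to be above background in every group, beside 6.82% of all genes. With the replicate number as a block it was 4 (4.41% of all genes). It was 5 with the mean over a gene's probes (7.39%) or scaling by the array median (6.56%). After normexp background correction it was 16, when 31.2% of all genes were called.

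The arrays also differed in brightness. The 75th percentile was 438.7 to 561.4 on G20 liver arrays and 276.3 to 340.8 on NC liver arrays, and 60.5% to 62.9% of probes were well above background in G20 against 57.7% to 59.6% in NC. Neither measure overlapped between the groups, and its part in the G20 differences was not tested.

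Other lists also held calls in liver. The summed level of 9 immediate early genes, which respond to handling and to many stimuli, was 5.87 to 6.31 on G20 arrays and 4.65 to 5.81 on NC arrays, with no overlap, and Dusp1 was called (0.69 ± 0.19 SE, adjusted p = 0.0486). The muscle sum spanned 1.10 to 3.07 on G20 and 1.28 to 2.98 on NC arrays. The hepatocyte sum (6 markers) spanned 10.13 to 10.43 on G20 and 10.18 to 10.42 on NC arrays, and the erythroid sum (8 markers) spanned 10.53 to 10.74 on G20 and 10.32 to 10.54 on NC arrays. Single markers were called lower for hepatocytes (Ttr, 1 of 6), endothelium (Tie1, 1 of 5) and muscle (Myl7, 1 of 6). The other muscle markers had positive differences, from 0.03 to 1.89, and none of them was called. Pdgfra was called higher (0.46 ± 0.10, adjusted p = 0.0189). It came from the list for the oligodendrocyte lineage of brain (1 of 4) and does not stand for that lineage in liver. No marker of erythroid cells, macrophages or fibroblasts was called. The part of these lists in the chaperone differences was not tested, and in bulk tissue fewer cells of a type and less RNA per cell cannot be told apart.

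**Figure D1:**
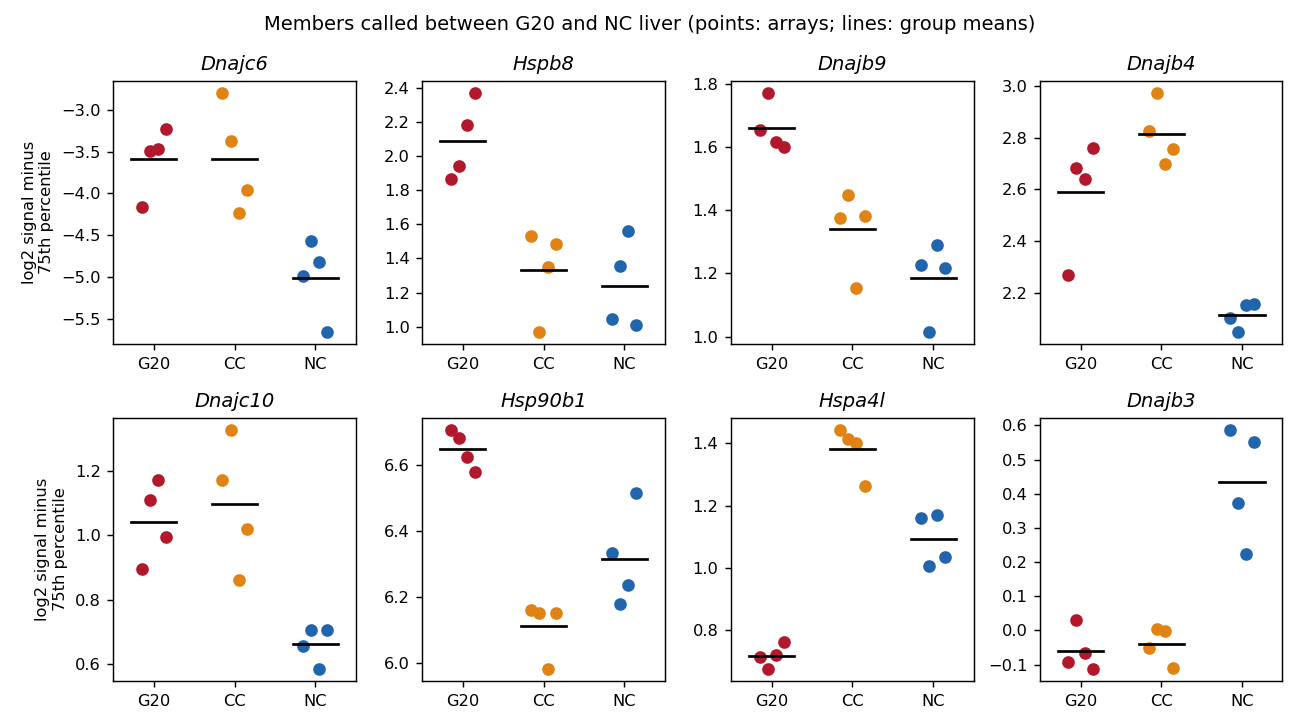
Level of each of the 8 members called between G20 and NC liver, as log2 signal minus the array's 75th percentile (vertical axis, a separate scale per gene), on the 4 arrays of G20, CC and NC liver (points; lines are group means). The G20 and NC points do not overlap in any panel, and CC lies near G20 for Dnajc6, Dnajb4, Dnajc10 and Dnajb3 and near NC for Hspb8.

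Among the 9 chaperones of the endoplasmic reticulum, 3 were higher in G20 livers, none was lower and 6 were not called, with a median of 0.07. Hsp90b1, the GRP94 protein that folds secreted and membrane clients, read 6.71, 6.68, 6.63 and 6.58 on G20 arrays and 6.33, 6.18, 6.24 and 6.51 on NC arrays. The groups came close at their edges without overlapping, and the difference was 0.33 ± 0.09 (SE, n = 4 each, limma adjusted p = 0.0396). Its call was lost in 13 of 20 alternatives, with adjusted p between 0.017 and 0.125. Dnajb9 (ERdj4), a J-domain partner of the HSP70 of this compartment, read 1.65, 1.77, 1.62 and 1.60 on G20 arrays and 1.23, 1.01, 1.29 and 1.22 on NC arrays. Every G20 array stood above every NC array, by 0.47 ± 0.09 on average (adjusted p = 0.0108). This call held in all 20 alternatives, between 0.40 and 0.75, and 2 of its 3 probes were called when each probe was tested alone. Dnajc10 (ERdj5), a J-domain protein with thioredoxin-like domains that reduces disulfide bonds, read 0.90, 1.11, 1.17 and 0.99 on G20 arrays and 0.66, 0.71, 0.58 and 0.71 on NC arrays, 0.38 ± 0.10 apart (adjusted p = 0.0486). It too separated the groups, but the call was lost in 14 of 20 alternatives and no probe of the gene was called when each was tested alone. On CC liver arrays Dnajb9 spanned 1.15 to 1.45 and was not called against NC (0.15 ± 0.09, adjusted p = 0.193), while Dnajc10 spanned 0.86 to 1.33 and was called (0.43 ± 0.10, adjusted p = 0.00633), although its probes were called in opposite directions there (-1.82 to 0.43).

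Hspa5 (BiP), the HSP70 of the endoplasmic reticulum and the usual marker of its stress response, was not called. It read 6.33, 6.48, 6.38 and 6.51 on G20 arrays and 5.85, 6.00, 6.25 and 6.37 on NC arrays. The G20 arrays lay in the upper part of the range and overlapped the highest NC array, and the difference was 0.31 ± 0.11 (adjusted p = 0.119). Dnajb11 and Dnajc3, further J-domain partners of BiP, differed by -0.03 ± 0.11 and 0.04 ± 0.20. Among 23 other genes of folding and stress in this compartment, 2 were higher and none was lower in G20 livers, with a median of 0.16. The 2 were Pdia4, a protein disulfide isomerase (0.55 ± 0.14, adjusted p = 0.0401), and Herpud1, a component of the degradation machinery (0.36 ± 0.09, adjusted p = 0.0325). The cochaperone Hyou1 (0.16), the stress factor Ddit3 (0.15) and the transcription factor Xbp1 (0.08) were not called.

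The promoters of some of these genes carry the letters of a known element. The endoplasmic reticulum stress element (ERSE) was searched as CCAAT, any 9 bases and CCACG, on both strands, in RefSeq promoters of build GRCm38.p6, from 250 bases before to 50 after the start. A promoter in the RefSeq table used was matched to 49 of the 60 members. The ERSE was found in 3 of these, Hspa5, Hsp90b1 and Dnajc3, and in 0.119% of all 32851 promoters, and the shorter ERSE-II form, ATTGG, any base and CCACG, was found in Dnajb11 alone among the members and in 0.0365% of all. The 250 bases before the start are printed for the 3 genes with an ERSE, 5′ to 3′ on the gene's strand with the matches in capitals, to show the shared element beside their G20 differences in liver (0.31, 0.33 and 0.04). The Hspa5 stretch is chr2:34771840-34772089 (plus strand) with its match 65 to 47 bases before the start, that of Hsp90b1 is chr10:86705445-86705694 (minus strand) with 2 matches on opposite strands, and that of Dnajc3 is chr14:118937682-118937931 (plus strand) with its match 105 to 87 bases before the start. Neither Dnajb9 nor Dnajc10 held an ERSE match in this window.
Hspa5: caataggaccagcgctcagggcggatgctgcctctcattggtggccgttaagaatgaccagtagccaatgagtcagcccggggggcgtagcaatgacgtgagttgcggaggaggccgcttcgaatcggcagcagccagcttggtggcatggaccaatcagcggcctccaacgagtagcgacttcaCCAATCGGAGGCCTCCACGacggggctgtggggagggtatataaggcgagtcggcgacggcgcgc
Hsp90b1: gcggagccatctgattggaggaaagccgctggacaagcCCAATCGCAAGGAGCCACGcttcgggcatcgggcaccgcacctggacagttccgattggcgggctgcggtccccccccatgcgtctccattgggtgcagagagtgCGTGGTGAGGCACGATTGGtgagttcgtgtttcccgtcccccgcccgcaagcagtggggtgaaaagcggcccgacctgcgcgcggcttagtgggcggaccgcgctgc
Dnajc3: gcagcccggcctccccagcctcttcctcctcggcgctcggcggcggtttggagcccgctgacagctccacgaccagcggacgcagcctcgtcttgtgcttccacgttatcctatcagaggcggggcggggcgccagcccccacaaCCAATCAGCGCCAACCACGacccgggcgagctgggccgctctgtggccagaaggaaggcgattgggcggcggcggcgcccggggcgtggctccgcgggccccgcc

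The mitochondrial members all had positive differences in G20 livers, from 0.11 to 0.29, and none of the 7 was called. Hspd1 (HSP60) read 7.12, 6.99, 6.83 and 6.87 on G20 arrays and 6.70, 6.62, 6.63 and 6.75 on NC arrays. The groups did not overlap, yet the difference of 0.28 ± 0.08 missed the threshold (adjusted p = 0.0526), while the gene's other probe differed by 0.35 and was called when each probe was tested alone. Hspe1 (HSP10), its lid, read 5.33, 5.12, 4.86 and 5.01 on G20 arrays and 4.86, 4.65, 4.89 and 4.87 on NC arrays (0.27 ± 0.11, adjusted p = 0.169), with overlap. Hspa9 (mortalin), the matrix HSP70 that pulls imported proteins across the inner membrane, read 5.95, 5.89, 5.56 and 5.54 on G20 arrays and 5.54, 5.44, 5.29 and 5.51 on NC arrays (0.29 ± 0.13, adjusted p = 0.215). Its groups met at the edge without overlapping. Of 13 other genes of mitochondrial folding and import none was called in either direction and the median was 0.06.

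Hspd1 and Hspe1 lie head to head, and the stretch between a start of each holds a cluster of heat shock element (HSE) letters. HSE pairs were searched as GAANNTTC and TTCNNGAA, on both strands, and the run of 3 units as GAANNTTC followed by NNGAA, which contains both pairs. The 3-unit form was found in Hspd1, Hspe1 and Dnajb6 among the members and in 0.603% of all promoters. The single pairs are common, in 7.86% (GAANNTTC) and 8.52% (TTCNNGAA) of all promoters, and GAANNTTC was found in 11 members including Hspa1a, Hspa1b, Hspb1 and Hspb8. The Hspe1 stretch, chr1:55087898-55088147 (plus strand, GRCm38.p6), is printed with the 18 bases of overlapping matches, 89 to 72 before its start, in capitals. These matches lie between the Hspe1 start and a start of Hspd1. Another listed Hspd1 promoter, chr1:55088194-55088493 (minus strand), held no HSE match.
Hspe1: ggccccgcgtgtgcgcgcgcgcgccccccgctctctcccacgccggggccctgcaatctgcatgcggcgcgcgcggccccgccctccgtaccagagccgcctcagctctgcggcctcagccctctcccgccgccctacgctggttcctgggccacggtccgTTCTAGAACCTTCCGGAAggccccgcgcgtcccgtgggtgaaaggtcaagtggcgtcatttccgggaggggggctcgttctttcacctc

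Hspb8 was the small HSP that changed. It works with Bag3 to hand misfolded proteins to autophagy. It read 1.87, 1.94, 2.18 and 2.37 on G20 arrays and 1.04, 1.35, 1.56 and 1.01 on NC arrays, while CC arrays spanned 0.97 to 1.53. All 4 G20 arrays stood above all 8 others, and the difference from NC was 0.85 ± 0.17 (limma adjusted p = 0.0125). This call held in all 20 alternatives, between 0.76 and 1.08. Its probe lies at chr5:116670053-116670112 (minus strand, mm8, the build of the array's annotation). Hspb1 (HSP27), an inducible small HSP, spanned -1.33 to -0.41 on G20 arrays and -1.90 to -1.18 on NC arrays (0.55 ± 0.66, adjusted p = 0.664), a difference smaller than its error.

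The cytosolic HSP70s and HSP90s gave no call in G20 livers. Hspa8 (Hsc70), the constitutive HSP70, read 6.04, 6.07, 6.05 and 6.04 on G20 arrays and 6.42, 6.39, 6.48 and 6.28 on NC arrays. The G20 arrays were nearly level and all below the NC arrays, but the difference of -0.35 ± 0.22 was not called (adjusted p = 0.359) in the fit that also holds the CC arrays, at 5.28, 4.19, 4.00 and 4.22. It was called without CC arrays 1 and 2 (adjusted p = 0.0236) and with the G20 and NC arrays alone (adjusted p = 0.0261), and the gene's other probe, at -0.44, was called in the fit of all probes. After normexp the difference was 0.23, not called. The inducible genes Hspa1a and Hspa1b varied widely between livers of 1 group. Hspa1a read 1.24, -1.27, -2.21 and -0.11 on G20 arrays and -0.93, -0.38, -0.32 and -1.56 on NC arrays. The G20 arrays thus held both the highest and the lowest of these 8 values, and the mean difference was 0.21 ± 0.61 (adjusted p = 0.871). Hspa1b, nearly identical in sequence so that signal of the pair may not be separable, read -1.66, -3.75, -4.76 and -2.83 on G20 arrays, in the same order of arrays. Hsp90aa1 differed by -0.19 ± 0.10 (adjusted p = 0.283) and Hsp90ab1 by 0.04 ± 0.12 (adjusted p = 0.879).

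Hspa4l, an exchange factor of the HSP110 type, was lower in G20 livers. It read 0.71, 0.68, 0.72 and 0.76 on G20 arrays, against 1.16, 1.01, 1.17 and 1.03 on NC arrays, and CC arrays were higher than both at 1.26 to 1.44. The 3 groups did not overlap, and G20 differed from NC by -0.37 ± 0.07 (limma adjusted p = 0.0119), a call lost in 2 of 20 alternatives (the mean over its probes and normexp). Between CC and NC livers its probes were called in opposite directions (-0.36 to 0.29), so the place of CC holds for the probe shown. Between G20 and NC its 4 probes differed by -0.38 to -0.21, and 2 were called. Hspa4, a close relative of Hspa4l, differed by 0.02 ± 0.07 (adjusted p = 0.875).

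Of 10 cytosolic Dnaja and Dnajb members, Dnajb4 was higher and Dnajb3 lower. Dnajb4, a partner of cytosolic HSP70, read 2.27, 2.68, 2.64 and 2.76 on G20 arrays and 2.10, 2.05, 2.15 and 2.16 on NC arrays, 0.47 ± 0.11 apart (adjusted p = 0.0237). CC arrays, at 2.70 to 2.97, were on the G20 side of NC. The call was lost in 8 of 20 alternatives, and the gene's other probe in liver differed by -0.03. Dnajb3 read -0.09, 0.03, -0.06 and -0.11 on G20 arrays and 0.59, 0.37, 0.22 and 0.55 on NC arrays, -0.49 ± 0.09 apart (adjusted p = 0.00852). CC arrays, at -0.11 to 0.00, lay on the same side, and only normexp, among 20 alternatives, ended the call. The gene lies inside the span of 8 Ugt1a genes, detoxifying enzymes of the liver, and the part of their transcripts in its signal was not tested. Dnajb1, the main inducible partner of HSP70, differed by -0.26 ± 0.13 (adjusted p = 0.232) and Dnaja1 by -0.37 ± 0.13 (adjusted p = 0.102).

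Dnajc6 (auxilin), which strips clathrin from vesicles in neurons, had a low signal in liver. It read -4.16, -3.49, -3.46 and -3.23 on G20 arrays and -4.99, -4.57, -4.82 and -5.66 on NC arrays, and only 2 of the 4 NC arrays were well above background. The difference was 1.43 ± 0.32 (adjusted p = 0.0233), and the call was lost under 6 of 19 alternatives. After normexp it was -1.16 (adjusted p = 0.0355), a call in the opposite direction. CC arrays, at -4.23 to -2.80, were as high as G20 arrays. The direction for this gene in liver depended on the background correction.

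Among pathway genes outside the name rule, 13 subunits of the cytosolic chaperonin and prefoldin gave 2 calls in G20 livers, both prefoldins and both higher: Pfdn1 (0.37 ± 0.08, adjusted p = 0.0187) and Pfdn2 (0.40 ± 0.10, adjusted p = 0.0293). Of 24 heat shock factors and cochaperones none was called, with a median of -0.03, and the myosin chaperone Unc45a came closest (-0.46 ± 0.13, adjusted p = 0.0609). In brain Unc45a was the 1 gene of the 24 called between G20 and NC (-0.44 ± 0.07, adjusted p = 0.0137).

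In brain no member passed the test between G20 and NC. Of 60 members 0 were called by limma with adjustment over 18299 genes, against 1.77% of all genes, 1.24% higher and 0.536% lower. The median difference was 0.01 over the members and 0.03 over all genes. The count was 2 without G20 array 3 and 1 without NC array 4, fits for which the share of all genes is not given. It was 2 when probes had to be above background in every group, beside 2.13% of all genes. Dnajb8, Dnajb4, Dnajc10 and Dnajb5 were not called and were picked out once their values were known. Dnajb8, a member known from testis, read -1.38, -2.08, -3.31 and -1.34 on G20 arrays and -4.01, -4.32, -3.85 and -2.98 on NC arrays. G20 array 3 fell within the NC range, and the difference of 1.76 ± 0.41 had an adjusted p of 0.0538. Dnajb4 read 1.90, 1.95, 1.74 and 1.74 on G20 arrays and 1.56, 1.56, 1.55 and 1.52 on NC arrays, without overlap (0.28 ± 0.07, adjusted p = 0.0544). Dnajc10 differed by 0.21 ± 0.06 (adjusted p = 0.0873) and Dnajb5, a brain-rich partner of HSP70, by -0.30 ± 0.08 (adjusted p = 0.0793). The chaperones of the endoplasmic reticulum had a median of -0.05 in brain, with Hsp90b1 at -0.01 ± 0.07, Hspa5 at -0.05 ± 0.12 and Dnajb9 at 0.08 ± 0.08.

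The test of whether the G20 difference itself differed between tissues called 3 of 60 members, Dnajb3, Hspb8 and Dnajc6, against 4.06% of all genes (2.59% higher, 1.47% lower in brain relative to liver). This fit took brain and liver arrays as independent. With brain and liver paired by number the count was 2 (3.26% of all genes). For Dnajb3 the G20 minus NC difference was 0.30 ± 0.09 in brain and -0.49 ± 0.09 in liver. G20 brains read -0.23, -0.14, -0.38 and -0.48 and NC brains -0.66, -0.69, -0.54 and -0.57, so the groups separated in both tissues and in opposite directions (0.80 ± 0.12, limma adjusted p = 0.000707), and the call held in all 26 alternatives. The brain difference alone was not called (adjusted p = 0.101). For Hspb8 the difference was -0.23 ± 0.13 in brain and 0.85 ± 0.17 in liver (-1.08 ± 0.22, adjusted p = 0.00719). For Dnajc6 it was 0.12 ± 0.08 in brain and 1.43 ± 0.32 in liver (-1.30 ± 0.35, adjusted p = 0.0388), a call lost in 15 of 25 alternatives and turned to 1.19 after normexp. Hsp90b1 (adjusted p = 0.0812) and Dnajb9 (adjusted p = 0.064), called in liver and not in brain, were not shown to differ between tissues.

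**Figure D2:**
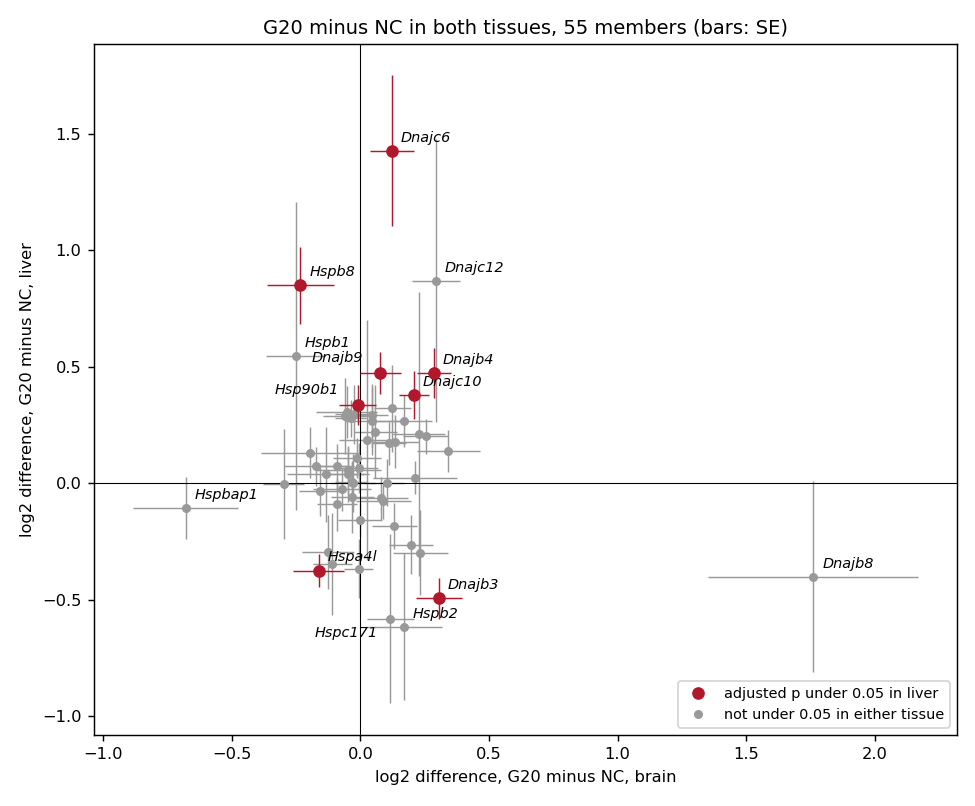
G20 minus NC log2 difference in brain (horizontal axis) and in liver (vertical axis) for the 55 members tested in both tissues, with SE bars. The 8 members called in liver (red) lie between -0.23 and 0.30 on the brain axis, and no member is called in brain, where Dnajb8 stands apart at 1.76.

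CC arrays differed from NC arrays in far more members, but by about the share of all genes. In brain 44 of 60 members (73.3%) were called, 29 higher and 15 lower, against 69.3% of all genes (41.5% higher, 27.8% lower). In liver 26 of 55 (47.3%) were called, 14 higher and 12 lower, against 40.7% (19.7% higher, 21% lower). Between G20 and CC 42 of 60 members were called in brain, 16 higher and 26 lower, against 67.6% of all genes (28.6% higher, 39% lower). In liver 24 of 55 were called, 15 higher and 9 lower, against 45% (24.6% higher, 20.4% lower). Median scaling moved the G20 against CC split to 7 higher and 32 lower in brain (68.9% of all genes called). In liver that split moved to 9 higher and 14 lower (48.1%). Quantile normalization gave 25 higher and 22 lower for CC against NC in brain (67.3%). The CC difference from NC differed between the tissues for 34 of 60 members, 20 higher and 14 lower in brain relative to liver, against 52.8% of all genes (30.8% higher, 22% lower). These comparisons share the CC arrays and their scan session. The deposited values of the CC arrays differ from their scanner values by a factor that varies from probe to probe (SD of the log2 ratio 0.627 to 0.657, against at most 0.0554 on G20 and NC arrays) and that the CC arrays of a tissue share. With the values the authors deposited in place of the scanner values, 0 members were called in brain and 8 in liver between CC and NC. Of all genes 0.659% were called in brain and 9% in liver. Between G20 and CC 0 members were called in both tissues, beside 1.29% of all genes in brain and 0.205% in liver. After normexp the CC against NC counts were 28 in brain (29.1% of all genes) and 3 in liver (1.4%). Without CC liver arrays 1 and 2 the liver count was 21 (35.3%). In liver the erythroid sum was 7.62, 7.56, 9.74 and 10.15 on CC arrays and 10.32 to 10.54 on NC arrays, and the hepatocyte sum was 9.11 to 9.98 on CC arrays and 10.18 to 10.42 on NC arrays, so CC arrays were below NC arrays for both, and their part in the CC differences was not tested. In brain the astrocyte sum (6 markers) was 6.46 to 6.74 on CC arrays and 5.97 to 6.02 on NC arrays. The microglia sum (7) was 2.60 to 2.75 on CC and 2.06 to 2.21 on NC arrays, and the endothelial sum (5) 2.38 to 2.64 on CC and 1.93 to 2.10 on NC arrays. The 75th percentile of the brain arrays was 402.1 to 465.3 in CC and 814.3 to 935.1 in NC. None of these overlapped between the groups, and their part was not tested either.

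Dnajb8 was higher on CC than on NC arrays in both tissues, and it passed the liver filter only through the CC arrays. In liver it read 0.86, 0.84, 1.19 and 1.52 on CC arrays and -5.90, -5.92, -3.97 and -5.81 on NC arrays, where 1 of 4 was above background. The fitted difference of 6.50 ± 0.41 (limma adjusted p = 4.79e-07) thus rests on a group mostly not above background. In brain it read -0.93, -0.20, -0.17 and -0.53 on CC arrays and averaged -3.79 ± 0.57 (SD) on NC arrays (3.33 ± 0.41, adjusted p = 1.7e-05). G20 livers, at -5.15, -6.36, -5.96 and -5.73, were not well above background and at least 114-fold lower than CC livers, a bound set by the dimmest spots above background. With the authors' deposited values the liver difference between CC and NC was -1.85, in the opposite direction.

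Other members that differed in CC brains included the import motor subunits Dnajc19 (1.51 ± 0.09) and Dnajc15 (1.28 ± 0.12), Dnajb1 (1.10 ± 0.09), Hspe1 (1.01 ± 0.11) and Hspa1a (0.80 ± 0.10) on the higher side. On the lower side stood the endosomal Dnajc13 (-1.17 ± 0.10), Dnajc14 (-0.87 ± 0.12), Dnaja2 (-0.81 ± 0.08) and Dnaja4 (-0.78 ± 0.07). The other probe of Dnajb1 differed by 0.17 and was not called, and 9 of 29 members with several probes in brain had probes called in opposite directions. In CC livers Hspa8 was lower by the widest margin (-1.98 ± 0.22), followed by Dnajb6, a suppressor of protein aggregation (-1.37 ± 0.15), and Hsp90aa1 (-0.75 ± 0.10), while Dnajb4 (0.70 ± 0.11) and Dnaja3 (0.65 ± 0.16) were higher. The other liver probe of Dnajb4 differed by -0.26 and was not called. For Hspa8 all 4 CC arrays lay below every NC array on this probe. The width of its margin holds for 1 probe, since G20 minus CC in liver was 1.63 on it and -0.06, not called, on the other. With the deposited values Dnajb6 in liver turned to 0.0658 and Hspa8 was not called (adjusted p = 0.849).

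Some members varied widely between livers of 1 group. Hspb1 read 1.46, 0.17, -2.10 and -2.05 on CC liver arrays 1 to 4, Hspb2 -0.69, -1.59, -2.07 and -2.58, and Hspb3, a small HSP of muscle, -2.06, -4.26, -5.57 and -5.39. The muscle sum on the same arrays was 6.77, 4.53, 1.28 and 1.07. The arrays with high muscle genes were thus those with high Hspb1, Hspb2 and Hspb3. Dnajc12, a cochaperone of the aromatic amino acid hydroxylases, read 5.01, 3.19, 2.35 and 2.50 on those CC arrays and 1.88, 2.68, 4.40 and 3.94 on G20 arrays, where the muscle sum was 1.10 on array 1, 1.60 on array 2, 3.07 on array 3 and just below that on array 4. NC arrays spanned 2.20 to 2.46 for Dnajc12, including NC array 4 with a muscle sum of 2.98. Hspb2, Hspb3 and Dnajc12 were picked out here once their liver values were known, and the part of muscle tissue in them was not tested. Across all members the median SD within a liver group was 0.15 in G20, 0.18 in CC and 0.13 in NC, against 0.17, 0.18 and 0.15 over all genes.

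**Figure D3:**
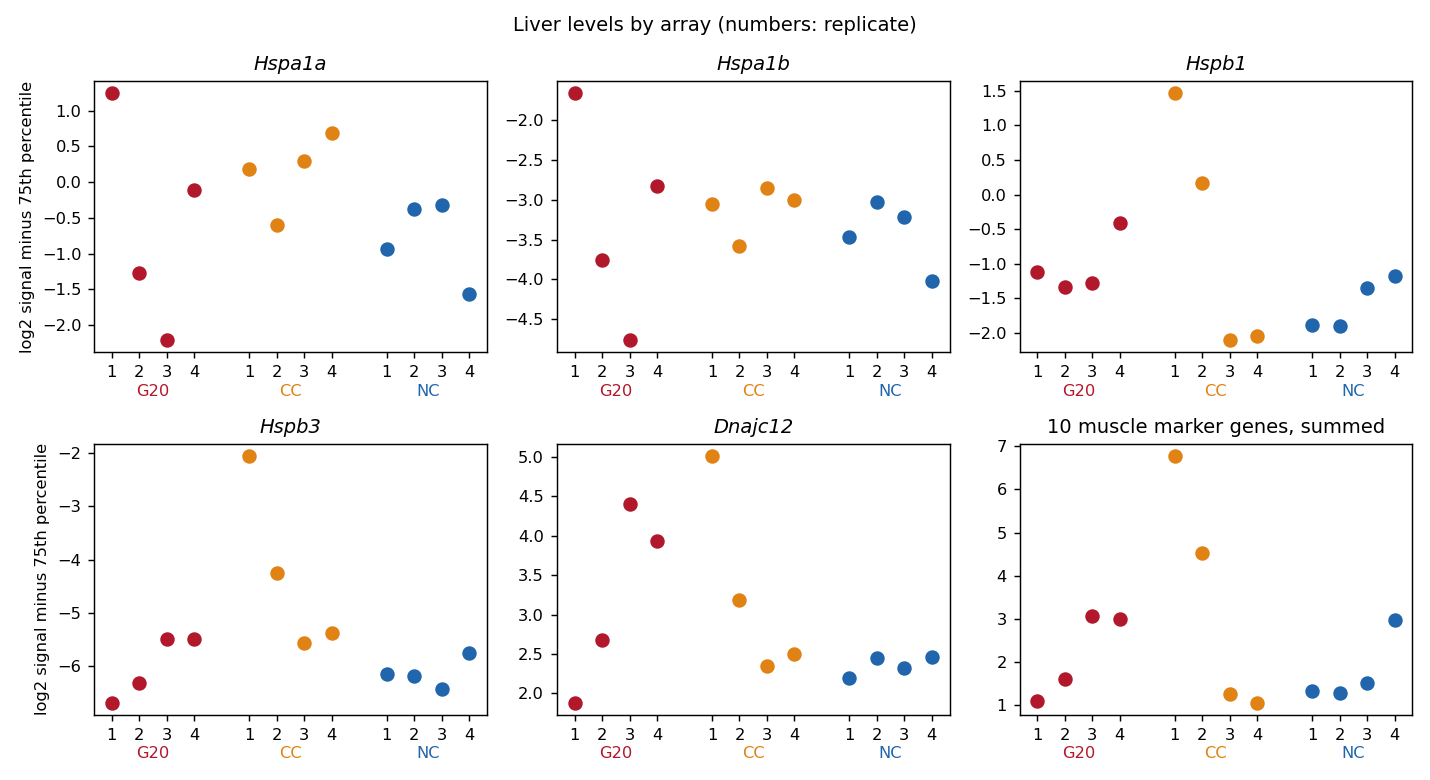
Liver level of 5 members and of the summed 10 muscle marker genes (log2 signal minus the array's 75th percentile, vertical axes, separate scales) on each G20, CC and NC array (horizontal axis, replicate numbers, which carry no order). CC arrays 1 and 2 stand high for Hspb1, Hspb3 and the muscle sum, and Hspa1a and Hspa1b range most widely within G20.

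Most members differed between the tissues. Between NC brain and NC liver 50 of 60 members (83.3%) were called, 20 higher and 30 lower in brain, against 89.1% of all 19881 genes (43.2% higher, 45.8% lower). The share called was thus not above that of all genes. The NC and G20 brain arrays were scanned 49 days after the liver arrays of the same groups, so in NC and G20 tissue and scan session cannot be told apart. CC brain and liver arrays shared a session, but each group of each tissue lay on its own slide. The median difference was -0.29 over the members and -0.04 over all genes. The split depended on scaling and on the background filter. It was 12 higher and 37 lower with array medians (88.2% of all genes called), which moved the median of all genes to -0.45. With the deposited values it was 29 higher and 17 lower (88.4%), and the median of all genes moved to 0.65. A filter for probes above background in every group leaves out members not above background in liver, and gave 12 higher and 30 lower (88.5%). Quantile normalization gave 20 higher and 27 lower (87.7%), and normexp 16 and 31 (78.9%). The main fit took brain and liver arrays as independent, although NC and CC numbers pair them by source name. With brain and liver paired by number, NC gave 19 higher and 31 lower (89.6%). In CC 52 members (86.7%) were called, 19 higher and 33 lower, against 84.5% of all genes (41% higher, 43.5% lower). In G20 48 (80%) were called, 18 higher and 30 lower, against 89.1% (43.4% higher, 45.8% lower).

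The members higher in brain included those of vesicle traffic. Dnajc6 read 2.99, 2.88, 2.83 and 2.74 in NC brain against -4.99, -4.57, -4.82 and -5.66 in NC liver, a difference of 7.87 ± 0.25 (limma adjusted p = 6.39e-18). Only 2 of those 4 liver arrays were well above background for it. Dnajc5, the cysteine string protein of synaptic vesicles, was higher by 2.10 ± 0.10 and Dnajc13 by 0.71 ± 0.14. The 3 vesicle and endosome members that passed the background rule were thus higher in NC brain. In G20 all 3 were higher in brain too, whereas in CC 2 were higher and 1 was lower (-0.73). Dnajb5 was higher by 4.16 ± 0.18. Hspa12a, a divergent HSP70, was at least 70.0-fold higher in brain and Hspb3 at least 24.7-fold, since neither was well above background on any NC liver array. Hspa1a (1.38 ± 0.46) and Hspa1b (1.13 ± 0.39) were higher in brain too. Hspb3 lost its call in 1 of 16 alternatives, and Hspa1b turned to -0.96 after normexp.

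Of the 9 members of the endoplasmic reticulum 7 were lower in brain, 1 was higher and 1 was not called, and of the 7 mitochondrial members 6 were lower and 1 higher, beside 45.8% of all genes lower. Of 23 other genes of that compartment 20 were lower and none higher, with a median of -1.27. Dnajc3 read -0.41, 0.12, 0.07 and -0.19 in NC brain against 2.58, 2.45, 2.70 and 3.05 in NC liver (-2.80 ± 0.19, adjusted p = 4.33e-12). Hsp90b1 (-1.78 ± 0.08), Dnajb11 (-1.31 ± 0.10) and Hspa5 (-1.29 ± 0.12) followed, and Hspa5 turned to 0.28 under quantile normalization. The 1 member on the brain side was Dnajc10 (1.04 ± 0.08). Its 4 probes spanned -0.18 to 1.04, with 3 called and none of these lower in brain. In G20 brain against liver its probes were called in opposite directions (-0.43 to 1.04). The lower mitochondrial members included Dnajc19 (-2.48 ± 0.10), Hspe1 (-2.47 ± 0.11), Hspd1 (-2.15 ± 0.07), Hspa9 (-1.83 ± 0.11) and Dnajc15 (-1.58 ± 0.11), and the higher one was Dnajc11, a protein of inner membrane organisation (0.90 ± 0.09). Dnajc10, Dnajc11, Dnajc13 and Dnajc15 were picked out between the tissues once their values were known. Of 13 other mitochondrial genes 10 were lower and 3 higher.

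Among small HSPs Hspb8 was lower in brain by the widest margin of any member (-3.10 ± 0.15), with -1.88, -1.72, -1.75 and -2.07 in NC brain against 1.04, 1.35, 1.56 and 1.01 in NC liver. Of the cytosolic HSP90s, Hsp90aa1 was lower (-1.68 ± 0.09) and Hsp90ab1 was not called (0.05 ± 0.10, adjusted p = 0.631). The other probe of Hsp90ab1 was higher in brain by 1.07 and was called when each probe was tested alone. Hsp90ab1 was called higher under 4 alternatives and turned to -0.36, called lower, under median scaling. Hspa8 was lower in brain by 2.55 ± 0.29 on its brighter probe, whereas its other probe was higher by 0.38. Such disagreement was not rare: of 30 members with several probes, 6 had probes called in opposite directions between the tissues (Dnajb4, Dnajb6, Dnajc18, Hspa4, Hspa4l and Hspa8), so the direction given for them holds for 1 probe.

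**Figure D4:**
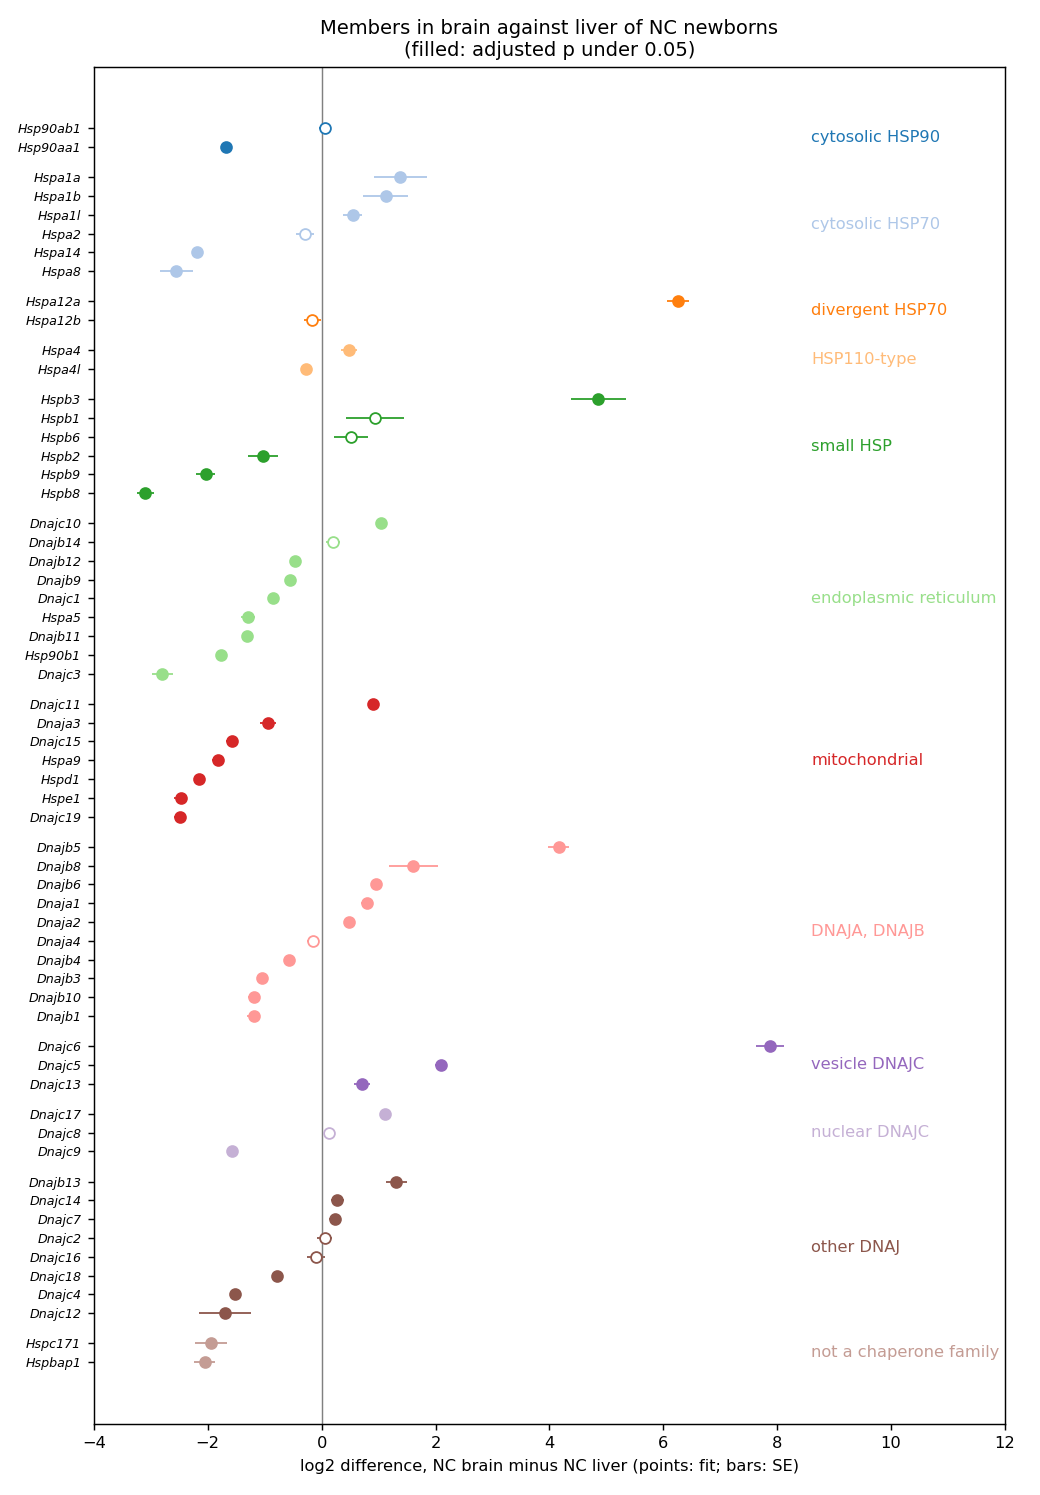
Log2 difference between NC brain and NC liver for the 60 members (points; bars are SE), grouped by role from top to bottom. Filled points have an adjusted p under 0.05, and most endoplasmic reticulum and mitochondrial members lie left of 0 (lower in brain) while the 3 vesicle members lie right of it. Fitted values of members not above background in liver, Hspa12a, Hspb3 and Dnajb13 among them, are drawn as measured.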

How the data were processed

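Total RNA of 24 samples was labelled with Cy3 and read on one-colour Agilent mouse arrays. Each file holds the scanner output of 1 array, made with Agilent Feature Extraction 9.5.3.1 per the submitters' processing notes. The processed signal is an intensity on a linear scale, already corrected for background by that software per the file headers, and the deposited flags are 0 or 1 per spot. The authors also deposited processed intensity values on a linear scale for 34140 probes, used after log2 as an alternative. Set against each array's scanner signal they were a scaling per array in the G20 and NC columns (SD of the log2 ratio over probes 0.0103 to 0.0554). In the CC columns the ratio varied between probes (SD 0.627 to 0.657) and was alike on the CC arrays of a tissue (r over probes 0.993 or higher). Column medians were 353.8 to 489.5 in brain and 223.6 to 341.3 in liver. Direction is that of the signal, genes were not centred, and how the CC factor was made is unknown. 

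From the scanner files, control spots and outlier spots were left out, log2 signal minus the array's 75th percentile was taken, and spots of a probe were averaged. A gene was its brightest kept probe in that tissue, or over both tissues for brain against liver. Linear models were fitted to all genes with limma 3.58.1 in R 4.3.3, with all 12 arrays of a tissue or all 24 arrays, and p-values were adjusted by Benjamini-Hochberg over all genes tested. A call is an adjusted p under 0.05. A fold against a group not above background is a lower bound, set by the lowest signal among probes well above background on each array.

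Named members are those called, up to 10 in each direction per comparison, and a set of core chaperones. Other members named are said to have been picked out once their values were known. The members and the lists were chosen with earlier results of these data known. Alternatives changed the background correction (normexp, offset 50), scaling, filter, probe rule, deposited values, replicate block and arrays left out. Leaving out CC liver arrays 1 and 2 was added after seeing the data. Between groups of a tissue, arrays with the same number did not deviate together (correlations -0.23 to 0.133). NC and CC numbers pair the tissues by source name (0.022 to 0.326 and 0.181 to 0.241). The main fits over both tissues did not use this pairing, and the replicate block did. The number of arrays limits the precision.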

Additional observations from a re-analysis of the deposited data

Results flagged for a closer look

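Each member was checked for an array far from the other 3 of its group. Of 343 groups of 4 arrays over 60 members, 18 held such an array, and chance gives about 1 in 20 groups.

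In G20 brains replicate 2 stood apart for Dnajc12 (1.20, the others 0.85 to 0.91), Dnajc15 (2.72, the others 2.19 to 2.22) and Dnajc3 (-0.32, the others -0.22 to -0.20). Replicate 1 was low for Hspa1b (-2.48, the others -2.23 to -2.19), replicate 3 for Hspa1l (-5.64, the others -5.45 to -5.43) and replicate 4 for Hspa4 (1.66, the others 2.20 to 2.31). In NC brains replicate 4 was low for Dnaja3 (1.12, the others 1.42 to 1.45), replicate 1 low for Dnajb10 (1.53, the others 1.69 to 1.70) and replicate 3 low for Dnajb5 (0.06, the others 0.24 to 0.26). Replicate 1 was high for Dnajc4 (0.10, the others -0.14 to -0.10) and Hspb9 (-4.70, the others -5.49 to -5.44).

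In G20 livers replicate 1 was low for Hspc171 (2.36, the others 4.19 to 4.46). In CC livers replicate 2 was high for Dnajc16 (1.47, the others 0.40 to 0.55), replicate 3 low for Hsp90b1 (5.98, the others 6.15 to 6.16) and replicate 1 high for Hspa8 (5.28, the others 4.00 to 4.22). In NC livers replicate 3 was high for Dnajb8 (-3.97, the others -5.92 to -5.81), replicate 1 high for Hspa12b (0.03, the others -0.70 to -0.60) and replicate 2 low for Hspe1 (4.65, the others 4.86 to 4.89).

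The G20 minus NC difference itself differed between brain and liver in limma's test for Dnajb3 (0.80), Hspb8 (-1.08) and Dnajc6 (-1.30). The CC minus NC difference differed between the tissues for 34 members, against 52.8% of all genes.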

How the results depend on the processing

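Of 3170 values recomputed under an alternative, 2913 kept their side of the threshold and, where called, their direction. A further 184 lost a call, 40 gained one, and 33 turned direction with a call in the main fit or the alternative. Turns between values not called in either fit are counted among the 2913. Counts of members called moved as follows, and the cause was not tested. With the deposited values they were 0 for CC minus NC in brain (0.659% of all genes) and 0 for G20 minus CC in brain (1.29%). They were 8 for CC minus NC in liver (9%) and 0 for G20 minus CC in liver (0.205%). For the G20 difference between tissues the count was 5 (3.8%), and for the CC difference between tissues 4 (6.56%). After normexp the counts were 28, 18, 3, 9, 19 and 7 in the same order, beside 29.1%, 20.9%, 1.4%, 13.6%, 34.3% and 6.23% of all genes. Normexp also gave 16 for G20 minus NC in liver (31.2%) and 30 for CC brain minus liver (48.8%). With each probe tested separately more features were counted. There were 76 (68.3% of all probes tested) and 74 (66.8%) for the brain and 43 (39.5%) and 40 (43.4%) for the liver CC comparisons. Brain minus liver gave 91 for each of NC (87.6%), CC (82.7%) and G20 (88%). The G20 and CC differences between tissues gave 6 (3.56%) and 60 (52.2%). The mean over a gene's probes gave 5 for G20 minus NC in liver (7.39% of all genes) and 6 for the G20 difference between tissues (3.73%). Median scaling gave 5 for G20 minus NC in liver (6.56%), and probes above background in every group gave 2 for G20 minus NC in brain (2.13%).

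Leaving out 1 array in turn gave 0 to 2 calls for G20 minus NC, 42 to 45 for CC minus NC and 38 to 41 for G20 minus CC in brain. In liver these ranges were 4 to 7, 20 to 24 and 19 to 26. Brain minus liver gave 48 to 50 in NC, 47 to 53 in CC and 46 to 50 in G20, and the differences between tissues gave 2 to 5 for G20 and 34 to 36 for CC. For these ranges the share of all genes is not given. The replicate block gave 4 for G20 minus NC in liver (4.41% of all genes) and 2 for the G20 difference between tissues (3.26%). It gave 50, 54 and 48 for brain minus liver in NC (89.6%), CC (85.1%) and G20 (89.6%), and moved no other count by over 1.5 times.

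Differences turned for these members, each with a call in the main fit or the alternative. CC minus NC in brain became -0.42 (mean of probes) and -0.43 (quantile) for Dnaja1, -0.23 (deposited), -0.0864 (normexp) and -0.0922 (quantile) for Dnajb11, 0.19 (normexp) for Dnajb14, and -0.0355 (deposited) and -0.0463 (quantile) for Hsp90aa1. With the deposited values it became 0.059 for Dnajc11, 0.15 for Dnajc7 and -0.0123 for Hspa14, and with the mean of probes 0.27 for Hsp90b1, -0.27 for Hspa4 and -0.17 for Hspd1. CC minus NC in liver became, with the deposited values, 0.0658 for Dnajb6, -1.85 for Dnajb8, 0.0452 for Dnajc14, 0.0168 for Dnajc17, 0.31 for Dnajc3, 0.39 for Hsp90b1 and 0.34 for Hspd1. With the mean of probes it became -0.27 for Dnajc10, 0.28 for Hsp90b1 and -0.11 for Hspa4. After normexp Dnajc6 became -0.25 in CC minus NC liver, -1.16 in G20 minus NC liver and 1.19 in the G20 difference between tissues. NC brain minus liver became, after normexp, -2.12 for Dnajb13, -1.75 for Dnajb8 and -0.96 for Hspa1b, and 0.42 (deposited) for Dnajb9, -0.36 (median scaling) for Hsp90ab1 and 0.28 (quantile) for Hspa5.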
